A study of Mus musculus with 6 samples.

Results

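The genes described here, 10 in number, belong to natural killer cell biology and were measured in a bulk macrophage sort: 4 genes of the Klrb1 cluster (Klrb1a, Klrb1b, Klrb1c and Klrb1f), the ligand gene Clec2d, the receptor genes Klrd1, Klrk1 and Ncr1, and the granule genes Nkg7 and Gzmb. They were chosen by name, with the age comparison of these same libraries already known, and all 10 were found among the 43432 genes listed. Their levels and age differences are therefore given as a description, with no test. RNA came from macrophages that were sorted as CD45+, MHCII+ and CD14+ cells from mammary glands of female FVB/N mice carrying the MMTV-PyMT transgene. In this model the mouse mammary tumour virus promoter drives the polyoma virus middle T antigen in mammary epithelium, and tumours develop in the glands. The groups differ in age only, 3 libraries at 8 weeks and 3 at 11 weeks, described by the submitters as early and late tumours. Every mouse carried the transgene, so there is no tumour-free control, and no treatment is named in the labels. The titles number the 3 libraries of an age with the prefix an, which is not spelled out, and nothing else used here states that they came from separate animals. Their spread may therefore be partly technical.

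Natural killer (NK) cells are innate lymphocytes that weigh signals from activating and inhibitory receptors before they release cytotoxic granules. Many of these receptors are C-type lectin-like proteins encoded side by side in the NK gene complex. The Klrb1 genes encode the NKR-P1 receptors, some of which bind Clec2 family proteins (Clr proteins) encoded in the same cluster, so that receptor and ligand genes are neighbours. Klrb1a and Klrb1c encode activating-type receptors, and the Klrb1c product carries the NK1.1 antigen of some strains. Klrb1b encodes an inhibitory receptor for Clr-b, the product of Clec2d, which most blood cells display. Members of this receptor family are not restricted to NK cells, and some are found on T cells and on myeloid cells.

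The sort held macrophage RNA. Csf1r, the receptor for the macrophage growth factor, was at 54613.0 to 70989.5 normalized counts in the 6 libraries. Normalized counts are the authors' gene counts divided by a size factor for each library. Totals ran from 38784434 to 75004876 reads per library, between 17385 and 19722 genes had a read, and mitochondrially encoded genes took 38.5 to 56.7% of the reads. A single read was worth about 1 normalized count, and 3 reads, taken as the floor of detection, came to 2.56 to 4.16 normalized counts. Among 14 macrophage markers, 0 passed limma's test of age with Benjamini-Hochberg adjustment, 3 were at an unadjusted p under 0.05, edgeR and DESeq2 also called 0, and their median log2 difference was 0.02. Over all 21675 genes tested, 8.03% had an unadjusted limma p under 0.05. Of the 6 genes for the sort antigens, Cd74 and H2-Ab1 fell, by 0.98 and 0.84 on the log2 scale (limma, adjusted p = 0.001113 and 0.01271). Without 8-week replicate 1 the limma adjusted p of Cd74 was 0.0579. H2-Ab1 did not pass with edgeR (adjusted p = 0.114), nor in limma without 8-week replicate 1 (0.116), 2 (0.137) or 3 (0.0705) or without 11-week replicate 1 (0.129). Cd14 was at 19463.2 to 23109.5 normalized counts at 8 weeks and at 30445.0 to 38151.0 at 11 weeks, a log2 difference of 0.63 with a limma adjusted p of 0.198. DESeq2 called Cd14, as well as Cd74 and H2-Ab1. Ptprc, the CD45 gene, was at 33328.0 to 37120.6 at 8 weeks and at 24310.2 to 29260.7 at 11 weeks (log2 difference -0.42, limma adjusted p = 0.434).

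Klrb1a was the member with the clearest difference between the ages. It was lower at 11 weeks, at 20.2, 19.2 and 76.1 normalized counts in replicates 1 to 3, against 385.2, 246.6 and 475.7 at 8 weeks. Every 8-week library lay above every 11-week library, and the 11-week library nearest to them was replicate 3. The means were 369 ± 115 (SD, n = 3) at 8 weeks and 38.5 ± 32.6 (SD, n = 3) at 11 weeks, a ratio of means 9.59-fold lower at the later age. The difference of mean log2(normalized count + 1) was -3.48 ± 0.77 (SE of the limma fit). The authors' deposited table gives a log2 fold change of -1.95 for this gene, and DESeq2 on recovered reads gave -3.26. Why the deposited value is the smaller in size was not tested. In sequenced reads the gene had 432, 178 and 557 at 8 weeks and 22, 19 and 84 at 11 weeks, all above the floor. Klrb1a (ENSMUSG00000030361) lies on the minus strand at chr6:128609227-128622934 (GRCm38). In bulk samples, fewer cells of a type and less RNA per cell cannot be told apart.

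**Figure D1:**
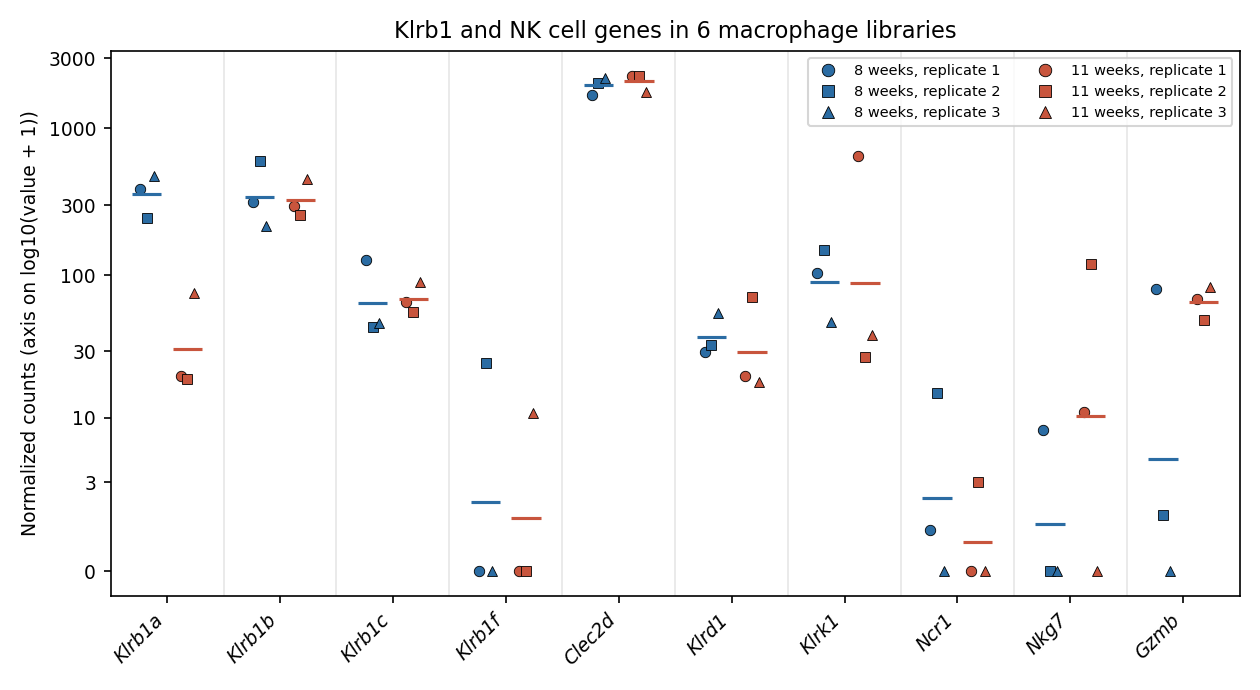
Normalized counts of the 10 genes (vertical axis, on a log10(value + 1) scale) in the 3 libraries of each age, one symbol per replicate, with the bar at the mean of log10(value + 1). Klrb1a is the gene whose ages do not overlap, with 8-week libraries from 246.6 to 475.7 and 11-week libraries from 19.2 to 76.1.

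The count of Klrb1a turns on how well its reads can be told from those of its neighbours, so a stretch of each receptor's first coding exon is shown. The lines give the last 85 coding bases of that exon, which is 103 coding bases long in Klrb1a, 229 in Klrb1c, 88 in Klrb1b and 85 in Klrb1f, from the GENCODE M21 annotation of GRCm38, read 5′ to 3′ on the gene's strand. Capitals mark bases unlike the aligned base of Klrb1a, which itself has none. The stretches are chr6:128622731-128622815 (minus strand) for Klrb1a, chr6:128788397-128788481 (minus) for Klrb1c, chr6:128826159-128826243 (minus) for Klrb1b and chr6:129045948-129046032 (plus) for Klrb1f.
Klrb1a: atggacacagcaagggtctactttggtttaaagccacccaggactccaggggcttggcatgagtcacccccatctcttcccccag
Klrb1c: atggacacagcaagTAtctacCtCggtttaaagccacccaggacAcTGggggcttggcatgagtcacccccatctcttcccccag
Klrb1b: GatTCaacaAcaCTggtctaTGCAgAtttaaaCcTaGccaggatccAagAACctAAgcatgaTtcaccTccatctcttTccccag
Klrb1f: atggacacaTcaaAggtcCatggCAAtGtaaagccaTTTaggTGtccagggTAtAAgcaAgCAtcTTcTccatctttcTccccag
Klrb1c differed from Klrb1a at 7 of these 85 bases, Klrb1b at 23 and Klrb1f at 23. Over the whole coding sequence, Klrb1a shared 91.3% of aligned positions with Klrb1c, 83.4% with Klrb1b and 70.5% with Klrb1f. Of the 1684 stretches of 50 bases in Klrb1a transcripts, 167 (9.9%) also occur in transcripts of another listed gene, 107 of them in Klrb1c and 69 in Klrb1b. For Klrb1b the share was 5.8%, for Klrb1c 6.0% and for Clec2d 2.0%, and for Klrb1f, Klrd1, Klrk1, Ncr1, Nkg7 and Gzmb it was 0. Reads from the shared stretches could be assigned to either gene or left uncounted, so the values of Klrb1a, Klrb1b and Klrb1c are uncertain. Shares of exact matches do not bound that uncertainty, since the counting tool and its handling of near matches are not given. These letters are the reference genome's, not those of FVB/N, and the effect of strain differences on the counts was not tested.

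Klrb1b, the inhibitory member, showed no such separation of the ages. It was at 314.7, 599.9 and 216.1 normalized counts at 8 weeks and at 296.1, 257.1 and 450.5 at 11 weeks. The highest and the lowest library were both 8-week libraries, replicates 2 and 3, and the 11-week values lay between them. The means were 377 ± 199 and 335 ± 102 (SD, n = 3 each), and the difference of mean log2(normalized count + 1) was -0.08 ± 0.50 (SE). Klrb1b (ENSMUSG00000079298) lies at chr6:128813706-128826331 on the minus strand.

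Klrb1c, the NK1.1 gene, did not separate the ages either. It was at 128.4, 44.3 and 47.0 normalized counts at 8 weeks and at 65.3, 56.5 and 89.7 at 11 weeks. Replicate 1 at 8 weeks was the highest, the other 8-week libraries were the lowest, and the ages overlapped. The means were 73.2 ± 47.8 and 70.5 ± 17.2 (SD, n = 3 each), with a log2 difference of 0.10 ± 0.86 (SE). Klrb1c (ENSMUSG00000030325, chr6:128778485-128789215, minus strand) is the gene whose coding sequence is closest to that of Klrb1a, and the level of the latter was lower at 11 weeks while the ages overlapped for Klrb1c.

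Klrb1f, whose receptor binds the Clec2i product, was detected in 1 library of each age. It was at 24.9 normalized counts in 8-week replicate 2 and at 10.9 in 11-week replicate 3, and at 0 in the other 4 libraries. These values rest on 18 and 12 reads. Klrb1f (ENSMUSG00000030154) lies on the plus strand at chr6:129045901-129057471. The gene listed as Klrb1 itself had no read in any library.

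The make-up of Klrb1 reads therefore differed between the libraries of the ages. Klrb1a made up 46.5% (95% Wilson interval 43.3 to 49.7) of the 929 reads of the 4 genes in 8-week replicate 1, 26.9% (23.7 to 30.4) of 661 in replicate 2 and 64.4% (61.1 to 67.5) of 865 in replicate 3. At 11 weeks its share was 5.3% (3.5 to 7.9) of 415 reads, 5.8% (3.7 to 8.8) of 330 and 12.1% (9.9 to 14.8) of 692 in replicates 1 to 3. The ages did not overlap, and the 8-week libraries differed among themselves by more than their intervals. The mean share was 45.9 ± 18.8% at 8 weeks and 7.7 ± 3.8% at 11 weeks (SD, n = 3 each), while Klrb1b took 44.2 ± 18.9% and 75.6 ± 3.3%. The intervals cover counting error only, since reads from amplified libraries are not independent molecules, and the shares are of reads, not corrected for transcript length. The 4 genes summed to 828.3, 915.7 and 738.8 normalized counts at 8 weeks and, later, to 381.6, 332.8 and 627.2 at 11 weeks.

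**Figure D2:**
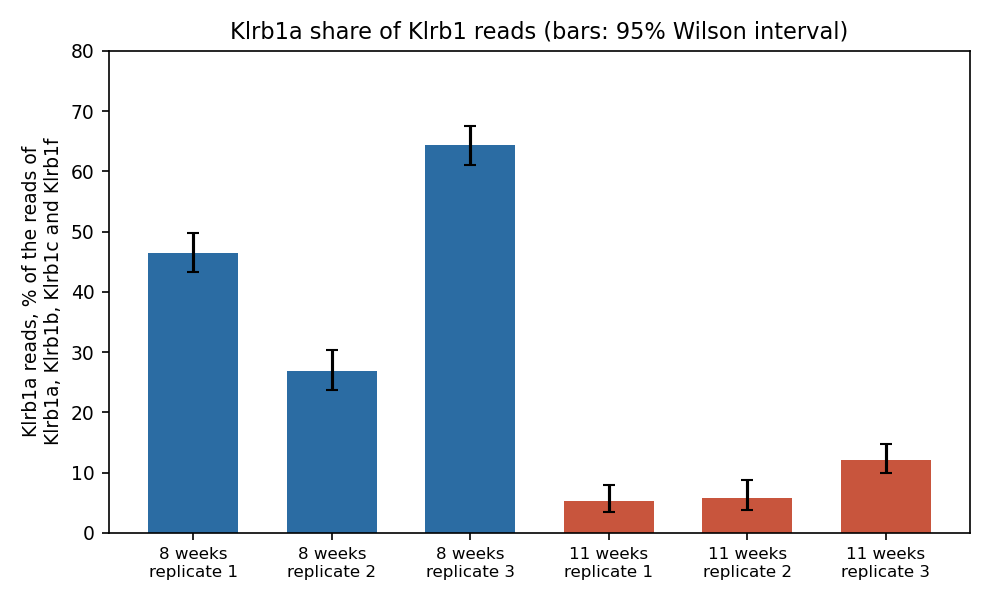
Reads of Klrb1a as a percentage of the reads of Klrb1a, Klrb1b, Klrb1c and Klrb1f (vertical axis) in each of the 6 libraries, with 95% Wilson intervals. The 8-week bars stand at 46.5, 26.9 and 64.4% and the 11-week bars at 5.3, 5.8 and 12.1%.

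Klrb1a and Klrb1c have the most similar coding sequences of the 4 genes and different values across the ages, and the bases before their transcription starts were therefore set side by side. The lines give bases upstream of the gene start that RefSeq annotates on GRCm38.p6, outside annotated exons, 5′ to 3′ on the gene's strand: 250 bases at chr6:128622935-128623184 (minus) for Klrb1a and 245 bases at chr6:128788642-128788886 (minus) for Klrb1c. Capitals mark TGTGGT, the core that RUNX factors bind, and GAGGAA, a core bound by ETS factors of the PU.1 type, both searched on both strands and picked after the sequences had been read.
Klrb1a: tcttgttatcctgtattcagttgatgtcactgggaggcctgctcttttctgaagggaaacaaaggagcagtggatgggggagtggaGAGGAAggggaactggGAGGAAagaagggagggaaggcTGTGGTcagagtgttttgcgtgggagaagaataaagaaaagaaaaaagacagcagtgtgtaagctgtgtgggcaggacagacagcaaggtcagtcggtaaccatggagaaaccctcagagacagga
Klrb1c: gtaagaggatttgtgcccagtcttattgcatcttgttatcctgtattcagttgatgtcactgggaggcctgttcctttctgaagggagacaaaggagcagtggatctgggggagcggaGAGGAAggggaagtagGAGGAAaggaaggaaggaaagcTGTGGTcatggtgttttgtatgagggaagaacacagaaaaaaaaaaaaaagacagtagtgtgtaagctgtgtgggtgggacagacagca
For Klrb1c the RefSeq start lies inside the gene span of the deposited table, so its stretch is upstream of that start only and not of the deposited span. Both stretches held 1 TGTGGT and 2 GAGGAA. The letters were picked from these same sequences, so their presence in both says nothing about the unlike levels of the genes, whose cause was not tested. Among 32851 promoter windows of 250 bases, 14.0% held TGTGGT and 23.3% held GAGGAA. The stretch before Klrb1b held 0 and 1, and the stretch before Klrb1f held neither. Identity to Klrb1a was taken over the full 250 bases before each RefSeq start, annotated exon bases included, in gapped alignments. It was 64.8% of aligned columns for Klrb1c, 48.8% for Klrb1b and 48.3% for Klrb1f. The identity of unrelated sequences aligned in this way was not computed. A match is a string of letters and not a measured binding site.

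Clec2d, the gene of the inhibitory ligand Clr-b, was the most abundant of the 10 per kilobase of exon. Its 8-week libraries held 1684.3, 2040.7 and 2183.9 normalized counts, and the values were 2284.0, 2268.2 and 1767.4 at 11 weeks. The libraries lay close together and the ages overlapped, with the lowest value in 8-week replicate 1 and the highest in 11-week replicate 1. The means were 1970 ± 257 and 2107 ± 294 (SD, n = 3 each), and the log2 difference was 0.10 ± 0.25 (SE), the smallest SE among the 10 genes. Clec2d (ENSMUSG00000030157) lies at chr6:129180615-129186534 on the plus strand.

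The other NK receptor genes were low. Klrd1 encodes CD94, the partner of the NKG2 receptors that read the non-classical class I molecule Qa-1. It was at 29.4, 33.2 and 55.5 normalized counts at 8 weeks and at 20.2, 70.6 and 18.1 at 11 weeks. The 11-week libraries held both the highest value, in replicate 2, and the lowest, in replicate 3, and the log2 difference was -0.34 ± 1.07 (SE). Klrd1 (ENSMUSG00000030165) lies at chr6:129591782-129598775, plus strand.

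Klrk1 encodes NKG2D, the activating receptor for stress-induced ligands of the Rae1, H60 and Mult1 families. It was at 104.3, 148.2 and 47.8 normalized counts at 8 weeks and at 651.9, 27.2 and 39.0 at 11 weeks. Replicate 1 at 11 weeks, with 709 reads, was far above the other 5 libraries, whereas the other 11-week libraries were the lowest of all. The means were 100.1 ± 50.3 and 239 ± 357 (SD, n = 3 each), yet the log2 difference was -0.02 ± 1.06 (SE). Without that library the log2 difference was -1.45. It was above 0 without 8-week replicate 1 (0.08) or 2 (0.33) and without 11-week replicate 2 (0.82) or 3 (0.57), so these libraries set no direction. Klrk1 (ENSMUSG00000030149) lies at chr6:129610323-129623864, minus strand.

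Ncr1 encodes NKp46, a receptor largely restricted to NK cells and innate lymphocytes. It was at 0.9, 15.2 and 0 normalized counts at 8 weeks and at 0, 3.0 and 0 at 11 weeks. Only 8-week replicate 2 was above 10 normalized counts, from 11 reads, and 3 libraries had no read. The ages overlapped. Ncr1 (ENSMUSG00000062524) lies at chr7:4337724-4345164, plus strand.

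The granule genes varied widely between libraries of one age. Nkg7, a membrane protein of cytotoxic granules, was at 8.0, 0 and 0 normalized counts at 8 weeks and at 11.0, 119.0 and 0 at 11 weeks. A single library, 11-week replicate 2, carried most of its reads, 118 of them, and the ages overlapped. The log2 difference was 2.44 ± 1.75 (SE) and came to 0.74 without that library. In the authors' deposited table the log2 fold change is 0.30. Nkg7 (ENSMUSG00000004612) lies at chr7:43437073-43438246, plus strand.

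Gzmb, the granule protease granzyme B, was present in all 3 libraries at 11 weeks, at 69.0, 49.4 and 83.4 normalized counts. At 8 weeks it was at 80.2, 1.4 and 0. Replicate 1 at 8 weeks lay within the 11-week range, and the other 8-week libraries were under the floor of 3 reads. The means were 27.2 ± 45.9 and 67.3 ± 17.1 (SD, n = 3 each), and the log2 difference was 3.53 ± 1.53 (SE). It was 5.43 without 8-week replicate 1 and 2.26 without 8-week replicate 3. On the recovered reads, edgeR gave a log2 fold change of 1.27, and the authors' deposited table gives 0.26. Gzmb (ENSMUSG00000015437) lies at chr14:56258856-56262260, minus strand.

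Levels were set side by side per kilobase of annotated exon. Clec2d stood highest, at 1680 ± 213 normalized counts per kilobase (SD over the 6 libraries), above the next gene by more than the spread. Klrb1b at 160 ± 64.4 and Klrb1a at 128 ± 123 followed, and the order of their means turned with age. At 8 weeks Klrb1a stood at 232 normalized counts per kilobase and Klrb1b at 169, and at 11 weeks Klrb1a stood at 24.1 and Klrb1b at 150.2. The 8-week order did not hold in every library. In 8-week replicate 2 Klrb1b had 599.9 normalized counts over 2228 bases of exon and Klrb1a 246.6 over 1595, so Klrb1b was the higher. Then came Gzmb at 32.9 ± 26.4, Klrd1 at 29.5 ± 16.3, Nkg7 at 25.2 ± 51.7, Klrb1c at 24.3 ± 10.9 and Klrk1 at 23.6 ± 33.5, 5 genes whose order lies within their spread. Klrb1f at 2.95 ± 5.06 and Ncr1 at 2.07 ± 3.90 were the lowest.

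All 10 genes passed the filter on low values, which asked for an average of 1 normalized count or more at 8 or at 11 weeks, with Klrb1f and Ncr1 the lowest of them. The counts that follow use the contrast with which the genes were chosen and are background only. The values of the ages did not overlap for 1 of 10, Klrb1a, lower at 11 weeks, and over all 21675 genes tested 5.12% were lower and 6.81% higher in this way. By limma's adjusted p, 0 of 10 passed, against 0.0507% of all genes, and 2 (Klrb1a and Gzmb) had an unadjusted p under 0.05, against 8.03%. With edgeR on recovered reads 0 passed (0.0646% of all genes), with 1 at an unadjusted p under 0.05. With DESeq2, Klrb1a passed (2.73% of 15454 genes), as it did in the authors' deposited table among the 8 members with an adjusted p there (1.91% of 14234 genes).

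Of the 10 genes, 7 lie within 1014.6 kb of chromosome 6, from the first base of Klrb1a to the last of Klrk1. The table lists 35 other genes there, of which 12 had no read and 22 were tested. By limma 0 of the 22 passed the adjusted test. At an unadjusted p under 0.05 were 2, Clec2i and Clec12a, beside 8.03% of all genes tested. The median log2 difference of the 22 was 0.31, with 13 above and 9 below 0. Over all genes tested the median was 0.05, and 52.8% were above 0. The 6 with the highest mean normalized counts were Clec12a, an inhibitory receptor of myeloid cells, Gabarapl1, an autophagy gene, Olr1, a scavenger receptor for oxidised lipoprotein, Clec7a, the beta-glucan receptor Dectin-1, Cd69, an early activation antigen, and BC064078. The Clec7a entry with reads is annotated as a polymorphic pseudogene, and another entry of that name, annotated as protein-coding, had no read. Clec12a was at 2914.8, 2373.2 and 2357.3 normalized counts at 8 weeks and at 1187.1, 2546.4 and 1382.2 at 11 weeks, and its ages overlapped through 11-week replicate 2.

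**Figure D3:**
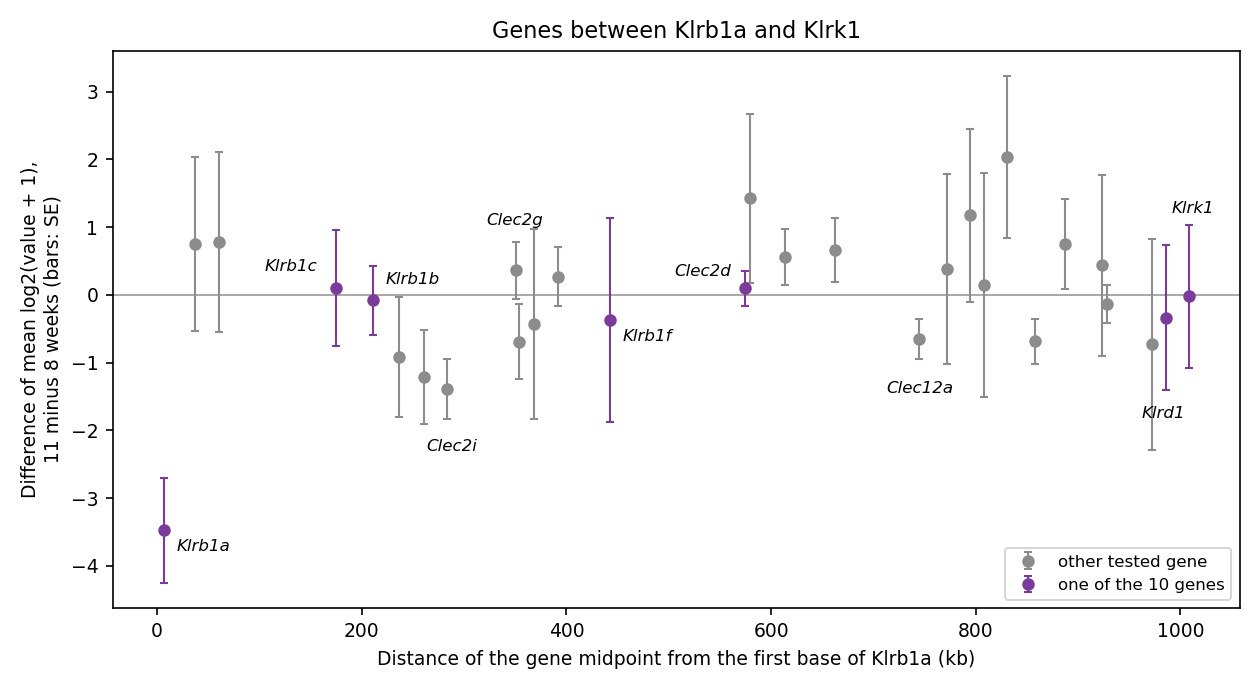
Difference of mean log2(normalized count + 1), 11 minus 8 weeks, with its SE (vertical axis), for every tested gene between Klrb1a and Klrk1, by distance of the gene's midpoint from the first base of Klrb1a in kb (horizontal axis). Klrb1a stands at -3.48, Clec2i at -1.39, and Klrb1c and Klrb1b near 0.

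Among ligand genes, Clec2i, which encodes Clr-g, a ligand of the Klrb1f receptor, had the smallest p. It was at 630.4, 526.4 and 760.1 normalized counts at 8 weeks and at 349.4, 213.7 and 186.7 at 11 weeks. Every 8-week library was above every 11-week library, and the log2 difference was -1.39 ± 0.44 (SE), with a limma adjusted p of 0.387. DESeq2 on recovered reads was the one alternative in which it passed. Clec2g, named after its values were seen, was at 431.6, 418.4 and 362.1 normalized counts at 8 weeks and at 805.5, 434.5 and 394.3 at 11 weeks, with overlapping ages. Of 16 ligand genes found, 14 were tested and 0 passed the adjusted limma test. An unadjusted p under 0.05 was reached by 1 of the 14 (8.03% of all genes tested), and their median log2 difference was -0.04. The NKG2D ligand gene Ulbp1, which encodes Mult1, was at 338.8, 207.8 and 287.8 at 8 weeks and at 176.5, 206.7 and 143.2 at 11 weeks (log2 difference -0.65, limma adjusted p = 0.802). H2-D1, H2-K1 and Pvr had the highest mean normalized counts of the list, and their log2 differences were -0.05, 0.23 and -0.09.

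Beyond the members, 34 NK-associated genes were looked up and 27 were tested. By limma 0 passed the adjusted test, 1 was higher and 3 were lower at an unadjusted p under 0.05, and the median log2 difference was -0.44, with 11 above and 16 below 0. Of all genes tested, 8.03% had an unadjusted limma p under 0.05. Cd226, an adhesion receptor, was at 989.7, 1000.2 and 985.6 normalized counts at 8 weeks and at 524.1, 249.0 and 786.7 at 11 weeks (log2 difference -1.08, limma adjusted p = 0.502). Sh2d1b1, the signalling adaptor EAT-2, was at 477.9, 881.1 and 383.5 at 8 weeks and at 105.7, 394.2 and 151.4 at 11 weeks (-1.55, limma adjusted p = 0.471). The ages did not overlap for Cd226 and overlapped for Sh2d1b1 through 8-week replicate 3. Il2rb, the receptor chain for IL-2 and IL-15, went the other way, at 85.6, 47.1 and 16.2 at 8 weeks and 396.3, 112.9 and 116.0 at 11 weeks (2.07, limma adjusted p = 0.577).

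Several of the NK-associated genes were at or near 0 at both ages, and others were not. The Ly49 receptor genes Klra3, Klra6, Klra8 and Klra10, and Klrc3, had no read in any library, and 8 of the 34 genes stayed under 10 normalized counts in all 6. The reference genome is not that of FVB/N, and the effect of strain differences on the counts of the Ly49 genes was not tested. Absence of reads from these genes is therefore no measure of NK cells. Eomes, an NK lineage transcription factor, was at 1.8 normalized counts in 8-week replicate 1 and at 0 elsewhere. Prf1, the pore-forming protein perforin, was at 19.4 in 8-week replicate 2, at 35.9 in 11-week replicate 1 and at 0 in the other 4 libraries. Gzma, another granzyme gene, was at 0 at 8 weeks and at 1.8, 10.1 and 0.9 at 11 weeks. Ifng, the interferon gene NK cells transcribe, had no read. Other receptor genes had reads: the Ly49 gene Klra1 was at 16.9, 11.1 and 20.5 normalized counts at 8 weeks and at 0.9, 1.0 and 1.8 at 11 weeks (log2 difference -2.92, limma adjusted p = 0.617). Klra4, also of the Ly49 family, was at 4.5, 23.6 and 5.1 at 8 weeks and at 0, 2.0 and 0 at 11 weeks (limma adjusted p = 0.643). For both, every 8-week library was above every 11-week library, at levels of few reads. Of the 27 genes tested in this list, 3 were lower and 2 higher at 11 weeks without overlap, beside 5.12% and 6.81% of all genes tested. The 2 higher were Il2rb and Gzma. Klri1 reached 155.2 normalized counts in 8-week replicate 2, Klrc1 reached 79.6 in 11-week replicate 2 and Tbx21, a lineage transcription factor, 52.6 in 8-week replicate 2. Summed over the 34 genes, the level was 2355 to 2559 normalized counts at 8 weeks and 1652 to 1942 at 11 weeks, with Cd226, Sh2d1b1 and Cd244 contributing the most.

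**Figure D4:**
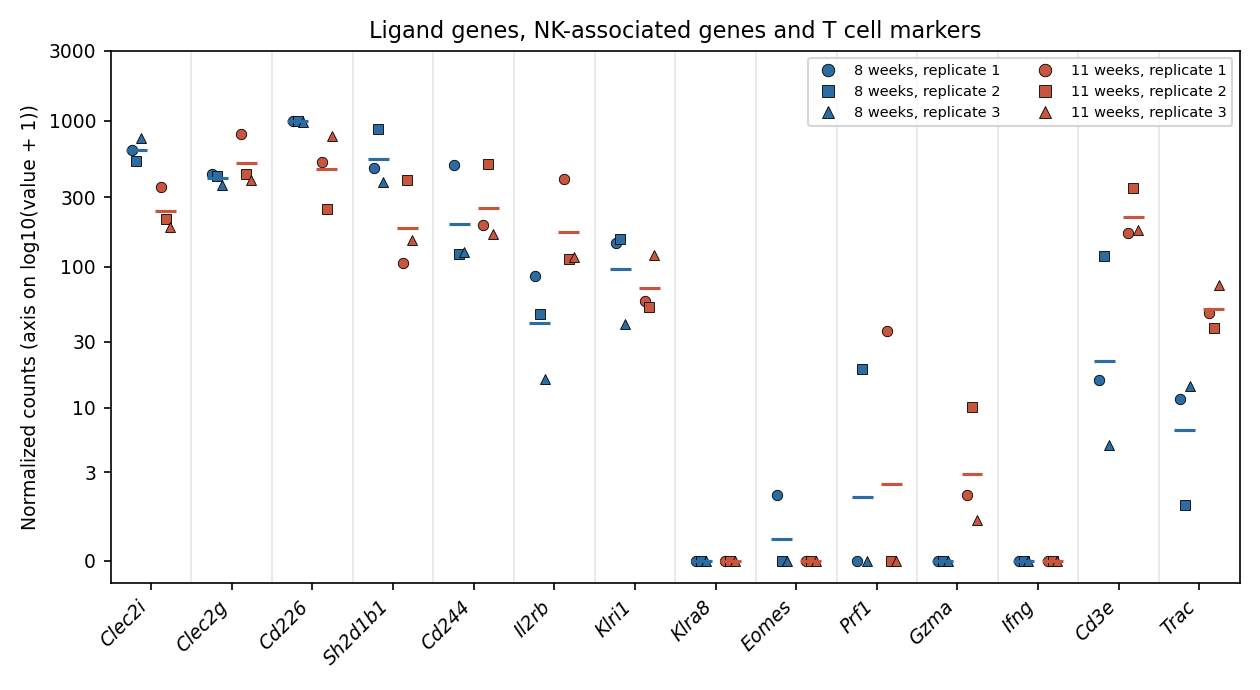
Normalized counts (vertical axis, on a log10(value + 1) scale) of ligand genes, NK-associated genes and T cell markers in the 6 libraries, with the bar at the mean of log10(value + 1) of each age. Clec2i is higher in all 8-week libraries, Cd3e and Trac in all 11-week libraries, and Klra8 and Ifng are at 0.

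Signalling genes that NK receptors share with macrophages were abundant. Of 12 adaptor and kinase genes 11 were tested, 0 passed the adjusted limma test, 1 had an unadjusted p under 0.05 and the median log2 difference was 0.06. Beside the limma counts in this paragraph, 8.03% of all genes tested had an unadjusted limma p under 0.05. Tyrobp, the adaptor DAP12, was at 43253.2 to 72028.5 normalized counts, and Fcer1g, the Fc receptor gamma chain, at 26933.1 to 44448.7. Of 20 granule and killing genes 15 were tested, 0 passed, 2 had an unadjusted p under 0.05 and the median was 0.02. That list was led by Lamp1, Ctsc and Srgn, which macrophages also express, while Gzmd, Gzme, Gzmf, Gzmg and Gzmk had no read. Its sum was 115800 to 122800 normalized counts at 8 weeks and 131400 to 149400 at 11 weeks, without overlap. Of 18 genes for NK-activating cytokines, their receptors and NK products 16 were tested, 0 passed, 1 had an unadjusted p under 0.05 and the median was 0.03. Across these 5 lists edgeR on recovered reads also called 0 of 77 genes, with 5 at an unadjusted p under 0.05, and DESeq2 called 1, Clec2i.

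Markers of other cells were measured in the same libraries. Mouse T cells generally lack MHCII and CD14 and mammary epithelium lacks CD45, so the stated gate would remove both. Of 21 T cell markers 0 passed the adjusted limma test, and 4 were higher at an unadjusted p under 0.05 (8.03% of all genes tested, in either direction). The median log2 difference of the 21 markers was 0.72, with 12 above and 9 below 0. With edgeR 0 passed, 2 of them at an unadjusted p under 0.05, and with DESeq2 0 passed, 3 of them at an unadjusted p under 0.05. Cd3e, a chain of the T cell receptor complex, was at 16.0, 117.8 and 5.1 normalized counts at 8 weeks and at 170.1, 345.8 and 177.6 at 11 weeks (log2 difference 3.25, limma adjusted p = 0.389). Trac, the receptor's alpha chain, was at 11.6, 1.4 and 14.5 at 8 weeks and at 47.8, 37.3 and 75.2 at 11 weeks (2.75, limma adjusted p = 0.613). Other markers lay the other way, such as Cd3g, another chain of that complex, at 85.6, 33.2 and 63.2 at 8 weeks and 2.8, 53.4 and 9.1 at 11 weeks (-2.17, limma adjusted p = 0.705). Of the 21, 4 were higher and 0 lower at 11 weeks without overlap, beside 6.81% and 5.12% of all genes tested. Summed T cell markers were at 6872 to 7514 normalized counts at 8 weeks and at 6087 to 7283 at 11 weeks. Il7r (means 3013 and 2742 at 8 and 11 weeks) and Cd4 (2856 and 2128) contributed most. The sum is therefore no measure of the number of T cells.

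Some other marker lists had sums that did not overlap between the ages. Mammary epithelial markers summed to 7740 to 11430 normalized counts at 8 weeks and 23950 to 46560 at 11 weeks. Csn3, a milk casein gene, rose by 1.98 on the log2 scale (limma, adjusted p = 0.0008884), the 1 of 12 tested that passed in limma and in edgeR. Of the 12, 8 were higher at an unadjusted limma p under 0.05, a threshold that 8.03% of all genes tested met in either direction. The median of the 12 was 1.69, with 11 above and 1 below 0. DESeq2 called 4, Csn2, Csn3, Krt18 and Krt19. Neutrophil markers summed to 1584 to 3739 and 5357 to 5935, with 0 of 8 passing in limma, 5 at an unadjusted p under 0.05 and a median of 2.17. With edgeR 0 of the neutrophil markers passed, with DESeq2 3 did (Cxcr2, Ltf and S100a8), and with the replicate block 2 did (Cxcr2 and S100a9). All 8 tested had a log2 difference above 0, but they were not alike. Csf3r, with the highest mean, overlapped, at 1358.9 to 3183.6 and 2384.2 to 2603.9 normalized counts. Ly6g, Camp and Elane, 3 of the 11 listed, stayed under 10 in all libraries. Mast cell and basophil markers summed to 167.6 to 499.6 and 772.1 to 988.5, with 0 of 8 passing in limma (3 at an unadjusted p under 0.05), edgeR or DESeq2 and a median of 2.0. Of the 8, 6 were above 0 and 2 below, Cpa3 (-2.03) and Ms4a2 (-0.79), and Mcpt8 had no read. Kit, also listed for innate lymphoid cells, and Hdc contributed most at 11 weeks (means 411.6 and 283.5), and the ages overlapped for both. This sum is therefore no measure of the number of mast cells. Innate lymphoid cell markers summed to 6529 to 7240 and 7317 to 10500, with 0 of 11 passing in limma and in edgeR, 6 at an unadjusted p under 0.05, and a median of 1.34. DESeq2 called 3 of these, Arg1 and Gata3 as higher and Il1rl1 as lower. Il7r, Rora and Arg1 contributed most to the sums, and the ages overlapped for Il7r and Rora. Arg1 was at 900.6 to 1737.2 normalized counts at 8 weeks and at 2035.7 to 4932.6 at 11 weeks. The sums therefore leaned on Arg1 and are no measure of the number of innate lymphoid cells. Sums of the plasmacytoid and conventional dendritic cell, B cell and macrophage markers overlapped. The sort antigens summed to 533400 to 627600 normalized counts at 8 weeks and 315000 to 404800 at 11 weeks, without overlap. Plasmacytoid dendritic cell markers summed to 7516 to 9969 and 7064 to 8008, with 0 of 7 passing in limma (1 at an unadjusted p under 0.05), edgeR or DESeq2, and Siglech among them was at 302.3, 478.0 and 307.5 at 8 weeks and at 126.0, 102.8 and 252.0 at 11 weeks. Conventional dendritic cell and B cell markers had 0 of 14 and 0 of 9 passing in limma (1 and 0 at an unadjusted p under 0.05), and 0 in edgeR and DESeq2, with medians of 0 and 2.03. The part of these lists in the level of Klrb1a was not tested.

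Profiles most like those of the cluster genes were sought by the root mean square difference of mean-centred log2(normalized count + 1) over the 6 libraries, among genes with a mean of at least 50 and a log2 range of at least 1. For Klrb1a they included Scml2 (0.57) and RP24-92A2.1 (0.69), of 8310 candidates. Scml2, a Polycomb group gene, was at 88.3, 66.5 and 134.9 normalized counts at 8 weeks and at 1.8, 8.1 and 29.0 at 11 weeks. Like Klrb1a, it was lower in every 11-week library and had its least low 11-week value in replicate 3. For Klrb1b the nearest were Sesn2 (0.07), Gps2 (0.11) and Bap1 (0.12), and for Klrb1c they were Epor (0.15), Ythdc2 (0.16) and Naaa (0.18). For Clec2d they were Phf23 (0.21), Stard5 (0.21) and Gm16153 (0.22), and for Klrb1f Gm26931 (0.78), Nme6 (0.81) and Rgs20 (0.82). With 6 points and 8310 candidates, such closeness is a description of these libraries.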

How the data were processed

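RNA-seq of 6 libraries was used, 3 for each age. Libraries were made from low-input RNA with Nugen Ovation and Nextera kits, per the labels' protocols. STAR 2.4, DESeq2 1.6 and GRCm38 are named per the submitters' processing notes, without their roles. The counting tool and its annotation: not given in the sources used here. Values were deposited as a signal: gene counts that each library's own size factor had scaled, with 1 decimal kept. At least 99.967% of values came out as whole reads within 0.05 normalized counts. The same deposited table carries the authors' log2 fold change, fold ratio and p-value, raw and adjusted.

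The members and the gene lists were chosen with earlier results of these data known. Since values were normalized counts, limma 3.58.1 (R 4.3.3, trend and robust) was fitted on log2(value + 1) to the 21675 genes with a mean of at least 1 in either age, with age as the only term and p-values adjusted by Benjamini and Hochberg over all of them at 0.05. A log2 difference is of mean log2(value + 1), which shrinks the change of low genes but can exceed the log2 ratio of means where a library is near 0. Alternatives were edgeR 4.0.16 and DESeq2 1.42.0 on recovered reads, pseudocounts of 0.5 and 5, no filter, a mean of at least 10, scaling to totals without mitochondrial genes, upper-quartile scaling, a replicate block and leaving out each library. The fit was tested on simulated data. Of 223 list entries, 218 matched by symbol. Named genes were all 10 members, the calls of each list or otherwise up to 3 members with the smallest p and 3 with the highest mean, the 6 most abundant neighbours and the 3 nearest profiles, 1 of which is not reported here. Klra3, Klra6, Klra8, Klra10, Klrc3, Eomes, Prf1, Ifng, Clec2g, Ulbp1, Trac, Cd3g, Klra1, Klra4, Klri1, Klrc1, Tbx21 and the granzyme genes at 0 were named after their values were seen. No 2 libraries held identical values. The labels name no batch. Whether counting used strand is not stated, and no member's span overlaps another listed gene. Sequences came from GENCODE M21 and RefSeq tables on the same build.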

Additional observations from a re-analysis of the deposited data

How the results depend on the processing

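Over 15 alternatives (other tests, pseudocounts, filters, scalings, the block and each library left out), the log2 difference of Klrb1a lay between -4.11 and -3.14, and none moved it beyond the spread within an age. Those of Klrb1b (-0.42 to 0.32), Klrb1c (-0.17 to 0.59), Clec2d (-0.01 to 0.22), Klrd1 (-0.95 to 0.00), Klrk1 (-1.45 to 1.26), Klrb1f (-1.56 to 1.19) and Ncr1 (-2.42 to 0.20, 14 alternatives each for the last 2) took both signs, while Nkg7 (0.74 to 4.19) and Gzmb (1.27 to 5.43) kept theirs. Of all genes 11 passed the test, 422 with DESeq2, 45 with the replicate block, and 3 to 16 with a library left out (3 without 8-week replicate 1 and 4 without 11-week replicate 1). DESeq2 called 1 of the 10 members, 1 gene of the NK-related lists and 13 of the marker lists and sort antigens, where limma called 0, 0 and 3. For the marker lists the block gave 6 and leaving out a library gave 1 to 4 (1 without 8-week replicate 1). The cause was not tested. Replicate numbers did not pair the samples: correlations of same-numbered deviations were -0.04, -0.01 and -0.03 over 15732 genes, 0 of 6 libraries correlated best with their own number, and the replicate block called 0 members and 0 NK-related genes, as without it. Klrb1f, Ncr1, Nkg7 and, at 8 weeks, Gzmb were at or under the floor of 3 reads in several libraries, so their differences rest on few libraries with reads.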
